A study of Cricetulus griseus with 10 samples.

Results

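The genes described here are 33 targets of the transcription factor NRF2 and enzymes of antioxidant defence, followed through the adaptation of CHO-K1 cells to suspension growth. Their rows were found by gene symbol, or for Ggt1 by its Chinese hamster NCBI gene number, and a mean of at least 10 over the 10 libraries was required. Of the 33 genes, 32 were matched to a row, all 32 passed the minimum, and Gsta4 was not matched. They are 32 of the 13521 features that passed it, out of 25156 in the table. CHO-K1 is an established wild-type cell line from Chinese hamster ovary, and it was adapted in the medium SFM4CHO. There were 5 groups of 2 RNA libraries, from passages 0, 2, 4, 6 and 10, written P0, P2, P4, P6 and P10. How the P0 cells were grown is not stated. Nor is it stated whether the 2 libraries of a group came from separate cultures, and the p-values here cover only the spread among libraries, which may be technical. In bulk RNA fewer expressing cells and less RNA per cell cannot be told apart.

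NRF2, encoded by Nfe2l2, is held at low levels by KEAP1, which marks it for degradation until oxidants or electrophiles modify KEAP1. It then enters the nucleus, pairs with small MAF proteins and binds antioxidant response elements near genes for glutathione synthesis, the thioredoxin system, haem breakdown, iron storage and NADPH supply. Glutathione and thioredoxin are the main thiol reductants of the cell, and both are regenerated with NADPH.

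Values are read counts normalised by the authors, called normalised reads here, and they are not divided by gene length, so levels are compared between libraries and not between genes. The recovered reads per library ranged from 8394219 to 16599495. The duplicates correlated at 0.988 to 0.992 (log2 values across 13521 features) at P0, P2 and P4, but at 0.956 at P6 and 0.930 at P10. The correlation of 2 duplicates cannot say which of them stood apart. P6 replicate 2 and P10 replicate 1, left out together in 1 alternative below, were marked only by their share of the feature Dym. It held 1.15% and 1.41% of their normalised reads, 4.32% in P6 replicate 1, and 8.53 to 13.5% in the other 7. Of 6 epithelial markers 5 were matched, of which only Cdh1 had a mean of at least 10. The keratins Krt8, Krt18 and Krt19 reached at most 4.95, 1.12 and 1.69, and Epcam 16.4. The summed epithelial level was 208 to 286 normalised reads at P0, 220 to 249 at P2, 181 to 219 at P4, 64 to 109 at P6 and 95.4 to 351 at P10. Of 6 mesenchymal markers 5 had a mean of at least 10. Col3a1 had the highest mean, 26683, before Vim with 16373 and Fn1 with 3813. Cdh2, Col1a1 and Col1a2 were low, with 17.9, 17 and 0.947. The mesenchymal sum was 28860 to 33808 at P0, 63710 to 64144 at P2, 59053 to 62186 at P4, 39963 to 45506 at P6 and 35530 to 36297 at P10. Of 8 leukocyte markers 6 had a mean of at least 10, with Cd14 near 0 (at most 0.78). The leukocyte sum was 139 to 158 normalised reads at P0, 255 to 265 at P2, 345 to 368 at P4, 232 to 294 at P6 and 169 to 238 at P10, and the part of the marker levels in the results was not tested.

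The comparisons with P0 asked how expression in the adapting cells differed from that at the start. At P2, 5 of the 32 genes rose, 11 at P4, 12 at P6 and 13 at P10, by limma at an adjusted p under 0.05 over all features. These are 15.6, 34.4, 37.5 and 40.6% of the 32 genes, beside 2.08, 3.72, 10.5 and 8.77% of all features called higher in the same comparisons. In either direction 4.15, 9.24, 21.0 and 17.0% of all features were called. None of the 32 fell by limma in this fit, though some were called lower in alternatives given below. At an unadjusted p under 0.05, Srxn1 was lower at P2 and at P4, 4 genes were lower at P6 (Gpx4, Prdx4, Taldo1 and Me1) and none at P10. With edgeR none was called lower, and with DESeq2 only Gpx4, at P6. The median log2 change of the 32 genes was 0.49, 0.74, 0.52 and 0.80 at P2, P4, P6 and P10, beside 0.01, 0.03, -0.07 and 0.00 over all features. The 4 comparisons share the P0 libraries and are not independent.

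**Figure D1:**
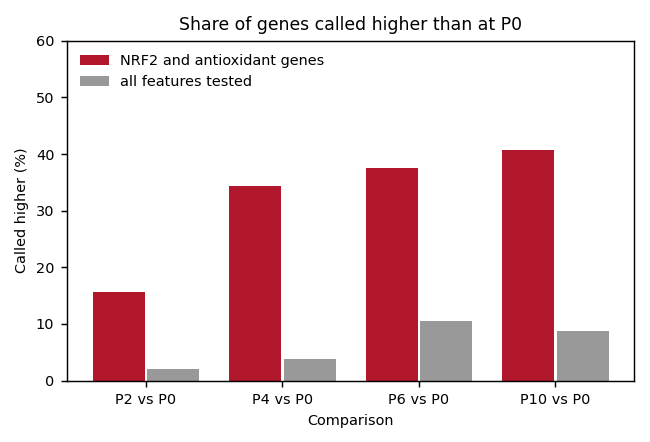
Percentage of genes called higher than at P0 (limma, adjusted p under 0.05) in each comparison, for the 32 NRF2 and antioxidant genes (red) and all features tested (grey). The share of the 32 genes was 15.6% at P2 and 40.6% at P10, beside 2.08 and 8.77% of all features.

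In all, 15 genes passed in at least 1 comparison and 4 in all 4 (Hmox1, Blvrb, Ggt1 and Nqo1). The other 17 passed in none. The matching shares of all features were not counted, so these counts stand without a background. In 16 of the 32 genes all 8 later libraries lay above both P0 libraries, as in 13.8% of all features, and in none of them did all 8 lie below, as in 15.4% of all features. The 16 were the 15 called genes and Prdx3.

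**Figure D2:**
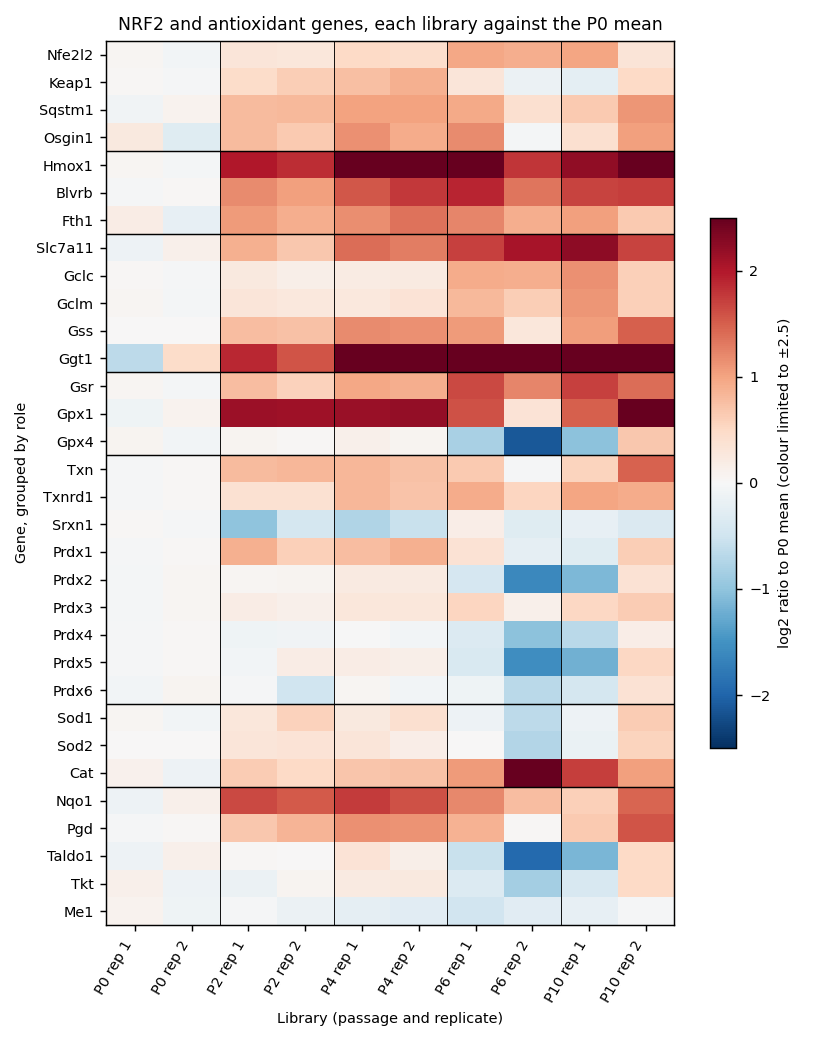
Log2 ratio of each library (columns, by passage and replicate) to the P0 mean for the 32 genes (rows, grouped by role in the order regulators, haem and iron, glutathione supply, glutathione use, thioredoxin and peroxiredoxins, superoxide and hydrogen peroxide, quinone reduction and NADPH supply); red is higher and blue lower, with the colour scale capped. Haem, iron and glutathione supply genes are red in all 8 later libraries, whereas Gpx4, Prdx2, Prdx5 and Taldo1 are blue in both P6 libraries, more so in replicate 2, and in P10 replicate 1, and pale red in P10 replicate 2.

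With the spread taken only from the 2 passages compared, Hmox1 and Ggt1 alone passed at P10, where 0.362% of all features did, while 21 of the 32 genes rose and 1 fell at P4, where 42% of all features were called, and 19 rose and 1 fell at P2, where 29.1% were. The counts also depended on single libraries, as did those over all features, given in brackets as the share called either way. The main fit uses 1 spread per gene pooled over 5 passages with 2 libraries each, and a fit without 1 library leaves its passage 1 library. At P10 5 genes passed without P0 replicate 1 (2.33%), and 5 without P0 replicate 2 (4.73%). At P6 the count was 5 without P0 replicate 1 (3.05%), 5 without P0 replicate 2 (5.19%) and 7 without P6 replicate 1 (13.3%). Without either P10 library 15 rose and 6 fell at P6 (40.2%). At P4 it was 3 and 4 without P0 replicate 1 and 2 (1.31 and 2.5%), and 3 and 2 without P4 replicate 1 and 2 (1.12 and 1.06%). At P2 it was 0 without any 1 of the 4 P0 and P2 libraries (0.451 to 0.754%), 1 without P4 replicate 1 or 2 (1.53 and 1.54%) and 10 without P10 replicate 1 or 2 (11.7 and 11.6%). Leaving out both P6 replicate 2 and P10 replicate 1 leaves P6 and P10 with 1 library each. The spread then comes from P0, P2 and P4 alone, so for single genes only log2 changes are given from that fit. Its counts of called genes appear only where the dependence on the processing is described, and no result rests on them.

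All 3 genes of haem and iron handling rose at P4, P6 and P10, and Hmox1 and Blvrb already at P2. Hmox1 encodes haem oxygenase, which breaks haem into biliverdin, carbon monoxide and iron. It had 406 and 381 normalised reads (P0), 1578 and 1413 (P2), 2233 and 2760 (P4), 2580 and 1355 (P6), and 1834 and 2578 (P10) (replicates 1 and 2 in this order, here and below). The lowest later library lay far above both P0 libraries, while the later passages overlapped one another. The log2 change was 1.92 at P2, 2.66 at P4, 2.25 at P6 and 2.46 at P10 (SE 0.30 each), with adjusted p of 0.0109, 0.00194, 0.00262 and 0.00194.

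Blvrb encodes biliverdin reductase B, which reduces biliverdin and flavins with NADPH. It had 179 and 184 normalised reads (P0), 413 and 373 (P2), 533 and 618 (P4), 682 and 461 (P6), and 583 and 606 (P10). The log2 change of Blvrb was 1.11 at P2 and 1.70 at P10 (SE 0.21 each, adjusted p = 0.0251 and 0.00201), and the P2 libraries lay below all 6 of the later passages.

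Fth1 encodes the ferritin heavy chain, the ferroxidase subunit of the iron store. It had 7378 and 5673 normalised reads (P0), 13659 and 12238 (P2), 14655 and 16585 (P4), 15240 and 12166 (P6), and 13348 and 10322 (P10). The 8 later libraries stood above P0, with P4 the highest mean. The log2 change of Fth1 was 1.27 at P4 and 0.86 at P10 (SE 0.25 each, adjusted p = 0.0164 and 0.0459), and at P2 it did not pass (adjusted p = 0.0640). The P10 call was lost without a filter, with total-sum scaling, with quantile normalisation and with edgeR. At P2 Fth1 passed with DESeq2. FTH1, PRDX1 and GPX1 have processed pseudogene copies in human, and how the authors' counting treated such copies is not given in the sources used here.

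**Figure D3:**
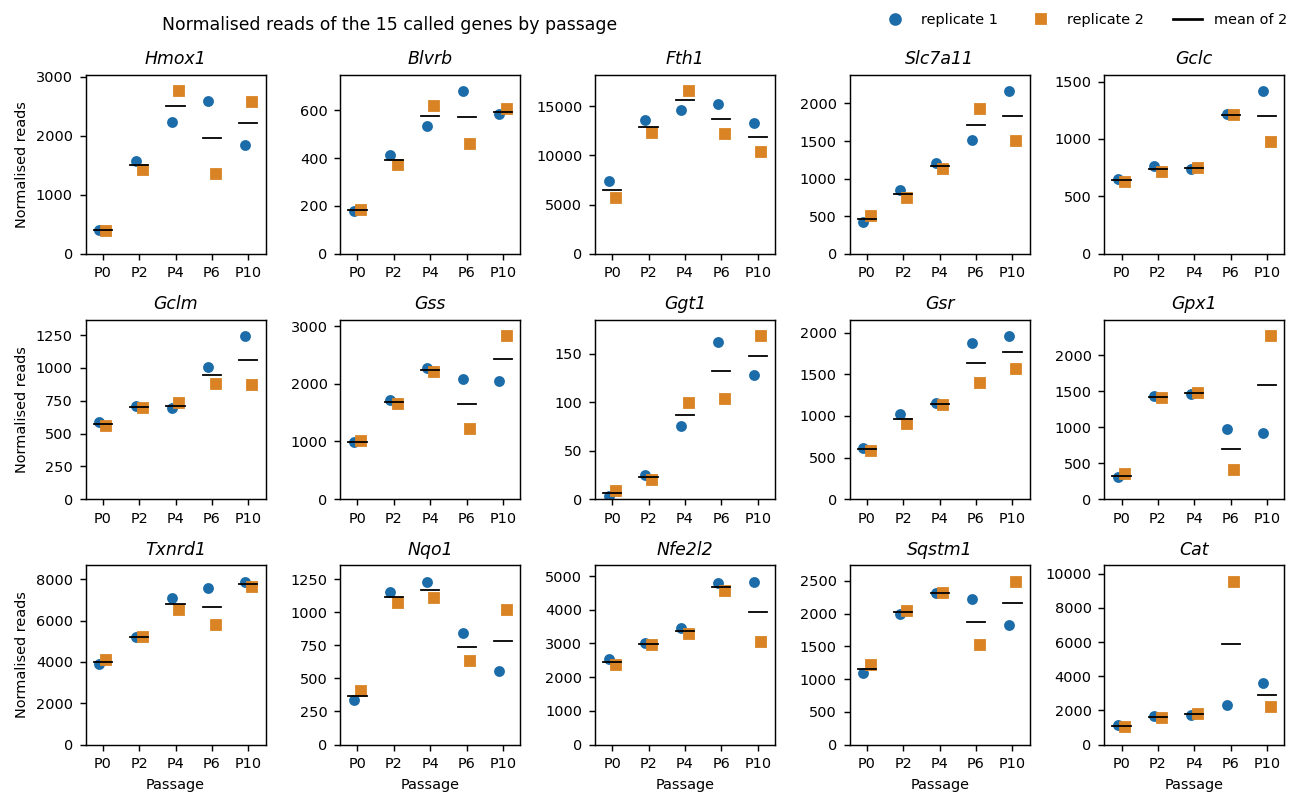
Normalised reads (y axis, linear and from 0) by passage (x axis) for the 15 genes called in at least 1 comparison with P0; circles are replicate 1, squares replicate 2 and bars the mean of the 2. Hmox1, Gpx1 and Nqo1 already lay between 1073 and 1578 normalised reads at P2, against 303 to 406 at P0, while Gclc and Gclm stood apart from P0 mainly at P6 and P10.

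All 5 genes of glutathione supply rose at P10, 4 at P6, 3 at P4 and 1 at P2. Slc7a11 encodes the cystine and glutamate exchanger xCT, which brings in the cystine used for glutathione. It had 422 and 503 normalised reads (P0), 853 and 739 (P2), 1211 and 1122 (P4), 1511 and 1927 (P6), and 2169 and 1497 (P10). Its libraries did not overlap between P0, P2, P4 and P6, and P10 replicate 2 lay just below P6 replicate 1. The log2 change was 0.78 at P2 (adjusted p = 0.0937, not called), 1.34 at P4, 1.89 at P6 and 1.96 at P10 (SE 0.22 each), with adjusted p of 0.00901, 0.00159 and 0.00153 at the last 3.

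Gclc and Gclm encode the catalytic and the modifier subunit of glutamate-cysteine ligase, which makes the first bond of glutathione. Gclc had 652 and 628 normalised reads (P0), 760 and 710 (P2), 737 and 749 (P4), 1214 and 1207 (P6), and 1420 and 972 (P10). Gclm had 591 and 559 (P0), 709 and 696 (P2), 692 and 732 (P4), 1011 and 881 (P6), and 1242 and 874 (P10). In both genes the P2 and P4 libraries lay close together, and all P6 and P10 libraries lay above them. The log2 change of Gclc was 0.20 at P2, 0.22 at P4, 0.92 at P6 and 0.88 at P10 (SE 0.19 each), and that of Gclm was 0.29, 0.31, 0.71 and 0.86 (SE 0.19 each). Both passed at P6 (adjusted p = 0.0142 and 0.0333) and P10 (0.0176 and 0.0194), and neither at P2 or P4 (lowest adjusted p = 0.381). With total-sum scaling neither passed at P10.

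Gss encodes glutathione synthetase, which adds glycine in the final step of synthesis. It had 997 and 999 normalised reads (P0), 1710 and 1652 (P2), 2266 and 2197 (P4), 2080 and 1219 (P6), and 2051 and 2823 (P10). The P6 duplicates differed most, P6 replicate 2 being the later library nearest to P0. It rose by 1.16 on the log2 scale at P4 and by 1.27 at P10 (SE 0.26 each, adjusted p = 0.0261 and 0.0132). At P6 its 0.67 did not pass (0.0924), but it passed there with total-sum scaling and with DESeq2.

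Ggt1 encodes gamma-glutamyltransferase, a cell surface enzyme that cleaves glutathione outside the cell so that its amino acids can be taken up. It had 3.48 and 8.62 normalised reads (P0), 25 and 20.1 (P2), 75.2 and 99.1 (P4), 162 and 103 (P6), and 128 and 168 (P10). These rest on 4 and 6 recovered reads (P0), 24 and 18 (P2), 76 and 85 (P4), 207 and 92 (P6), and 152 and 215 (P10). Its log2 change was the largest of the 32 genes at P4, P6 and P10, with 1.83 at P2, 3.73 at P4, 4.31 at P6 and 4.49 at P10 (SE 0.42 each) and adjusted p of 0.0468, 0.00188, 0.000775 and 0.000635. With so few reads at P0 the size depends on the added constant and on the P0 library kept. Over the alternatives the P10 value ranged from 3.82 to 5.04. With the constant unchanged it was 5.04 without P0 replicate 2 and 3.94 without P0 replicate 1. The P2 call was lost with a pseudocount of 5, without a filter and with edgeR.

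In glutathione use, Gsr and Gpx1 rose and Gpx4 did not pass. Gsr encodes glutathione reductase, which returns oxidised glutathione to its reduced form. It had 618 and 578 normalised reads (P0), 1027 and 897 (P2), 1161 and 1127 (P4), 1874 and 1392 (P6), and 1958 and 1570 (P10). The passages up to P6 did not overlap, and P6 and P10 did. Its log2 change was 0.68 at P2 (adjusted p = 0.0973, not called), 0.93 at P4, 1.43 at P6 and 1.55 at P10 (SE 0.20 each), with adjusted p of 0.0211, 0.00288 and 0.00219 at the last 3. Total-sum scaling ended its P4 call, and at P2 it passed with quantile normalisation and with DESeq2.

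Gpx1 encodes the cytosolic glutathione peroxidase, a selenoenzyme that reduces hydrogen peroxide. It had 303 and 345 normalised reads (P0), 1425 and 1405 (P2), 1454 and 1479 (P4), 975 and 410 (P6), and 917 and 2260 (P10). The 4 libraries of P2 and P4 lay within a narrow band, and the lowest later values were in P6 replicate 2, P10 replicate 1 and P6 replicate 1. Its log2 change was 2.13 at P2, 2.18 at P4 and 2.15 at P10 (SE 0.45 each, adjusted p = 0.0387, 0.0208 and 0.0153), whereas 0.97 at P6 did not pass (0.153). Without P6 replicate 2 and P10 replicate 1 its log2 change at P6 was 1.59, on 1 library there.

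Gpx4 encodes the selenoenzyme that reduces lipid hydroperoxides in membranes. It had 206 and 188 normalised reads (P0), 207 and 201 (P2), 216 and 207 (P4), 112 and 44.9 (P6), and 96.2 and 314 (P10). Its P10 libraries lay on either side of P0. The log2 change was 0.05, 0.10, -1.46 and -0.18 at P2, P4, P6 and P10 (SE 0.54 each), and the lowest adjusted p was 0.0855, at P6.

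Of the 4 regulators, Sqstm1 passed at P4 and P10 and Nfe2l2 at P6, and Keap1 and Osgin1 passed in none. Nfe2l2 itself had 2536 and 2351 normalised reads (P0), 3011 and 2960 (P2), 3467 and 3294 (P4), 4797 and 4561 (P6), and 4831 and 3041 (P10). All later libraries lay above P0, and P10 replicate 2 stood apart from its duplicate, near the P2 level. The log2 change was 0.29, 0.47, 0.94 and 0.65 at P2, P4, P6 and P10 (SE 0.22 each), with adjusted p of 0.0214 at P6 and 0.0767 at P10, where it passed with DESeq2. NRF2 is regulated mainly by protein stability, which these data do not measure.

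Sqstm1 encodes p62, an autophagy receptor that binds KEAP1. It had 1089 and 1216 normalised reads (P0), 1999 and 2042 (P2), 2314 and 2317 (P4), 2225 and 1525 (P6), and 1825 and 2487 (P10). Sqstm1 had a log2 change of 0.81 at P2, 1.01 at P4, 0.68 at P6 and 0.89 at P10 (SE 0.22 each), of which those at P4 and P10 passed (adjusted p = 0.0261 and 0.0284). Under quantile normalisation the P10 call was lost. Sqstm1 passed at P6 with total-sum scaling, edgeR and DESeq2, and at P2 with DESeq2.

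Keap1 had 382 and 366 normalised reads (P0), 517 and 576 (P2), 634 and 695 (P4), 463 and 339 (P6), and 316 and 529 (P10). The P2 and P4 libraries were all above P0, and P6 replicate 2 and P10 replicate 1 were below it. The log2 difference was 0.54, 0.83, 0.08 and 0.13 (SE 0.26 each), with a lowest adjusted p of 0.0831 at P4. There it passed with quantile normalisation and with DESeq2. Osgin1, an oxidative stress-induced growth inhibitor, ranged from 53.2 to 152 normalised reads, with log2 differences of 0.60 to 1.06 (SE 0.41 each, lowest adjusted p = 0.154).

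In the thioredoxin system Txnrd1 rose at P4, P6 and P10, and none of the other 8 genes passed at any passage. Txnrd1 encodes the cytosolic thioredoxin reductase, a selenoenzyme that reduces thioredoxin with NADPH. It had 3910 and 4087 normalised reads (P0), 5206 and 5194 (P2), 7087 and 6534 (P4), 7574 and 5768 (P6), and 7879 and 7631 (P10). All later libraries were above P0, and both P10 libraries were the highest of the 10. Its log2 change was 0.38 at P2, 0.77 at P4, 0.73 at P6 and 0.96 at P10 (SE 0.19 each), with adjusted p of 0.0420, 0.0311 and 0.0130 at the last 3. The P4 call was lost without a filter, with total-sum scaling and with quantile normalisation, and the P6 call without a filter.

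Txn, thioredoxin itself, had 1542 and 1610 normalised reads (P0), 2746 and 2807 (P2), 2809 and 2633 (P4), 2496 and 1541 (P6), and 2309 and 4380 (P10). Only P6 replicate 2 was not above P0, and its log2 difference of 1.01 at P10 (SE 0.31) just missed the threshold (adjusted p = 0.0563), which it passed with total-sum scaling, edgeR and DESeq2. Srxn1, sulfiredoxin, repairs overoxidised peroxiredoxins. It had 356 and 341 normalised reads (P0), 174 and 256 (P2), 205 and 235 (P4), 388 and 282 (P6), and 301 and 272 (P10). Its P2 and P4 libraries lay below P0, with log2 differences of -0.72 and -0.66 (SE 0.24 each) that did not pass (adjusted p = 0.147 and 0.131). With the spread of the 2 passages alone Srxn1 was called lower at both, where 29.1 and 42% of all features were called.

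The 6 peroxiredoxins reduce peroxides with electrons from thioredoxin or, for Prdx6, glutathione. At P10 their log2 differences ran from -0.38 for Prdx2 to 0.57 for Prdx3, the mitochondrial member, whose adjusted p of 0.0546 was the lowest of the 6 and which passed with a minimum mean of 50 and with DESeq2. Prdx3 had 672 and 714 normalised reads (P0), 785 and 755 (P2), 839 and 843 (P4), 1005 and 753 (P6), and 993 and 1071 (P10). Prdx1 had 3509 and 3609 (P0), 6594 and 5352 (P2), 6049 and 6561 (P4), 4613 and 3030 (P6), and 2899 and 5444 (P10). Prdx1 was above P0 in all P2 and P4 libraries and below it in P6 replicate 2 and P10 replicate 1, and no comparison passed (lowest adjusted p = 0.146, at P4). Prdx2 and Prdx5 stayed between 776 and 1283 normalised reads in the 6 libraries of P0, P2 and P4. In P6 replicate 1 they had 815 and 618, each below its own values in those 6 libraries. In P6 replicate 2 they had 357 and 273, in P10 replicate 1 they had 497 and 353, and in P10 replicate 2 they reached 1412 and 1164. Neither passed at P10. Without P10 replicate 2, which leaves 1 library there, the log2 differences were -1.13 for Prdx2 and -1.19 for Prdx5. Prdx4, the member of the endoplasmic reticulum, ranged from 1203 to 2742 over all libraries and Prdx6 from 1220 to 2534.

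**Figure D4:**
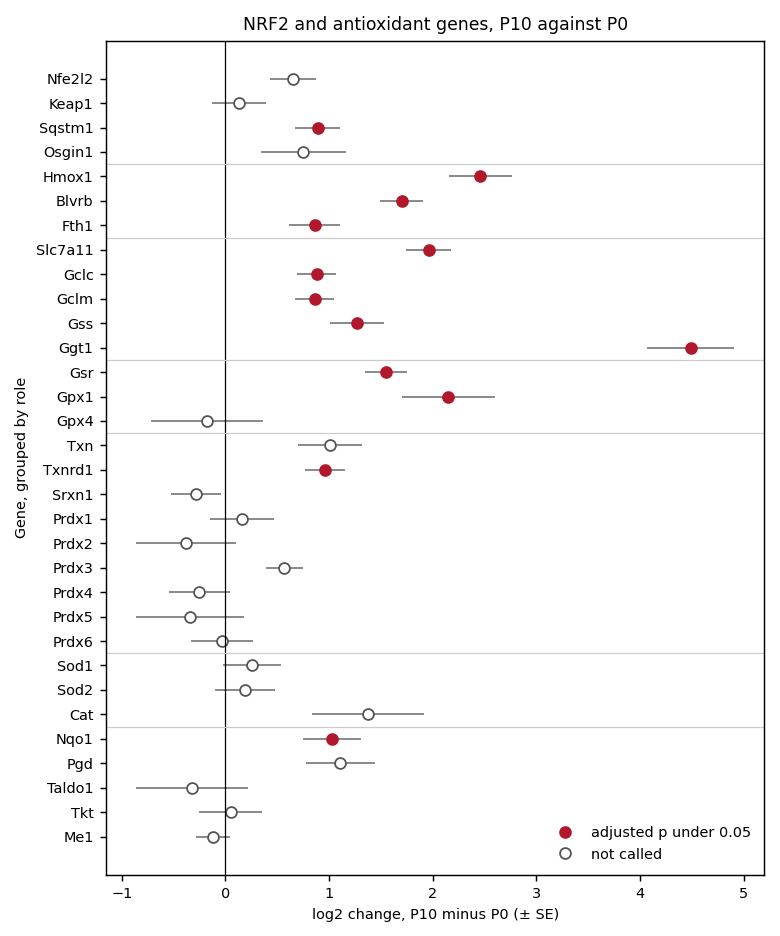
Log2 change at P10 against P0 (x axis; bars are ± SE from limma, 2 libraries per passage) for the 32 genes, grouped by role. Filled points passed at an adjusted p under 0.05: all of the haem and iron and the glutathione supply genes, and none of the peroxiredoxins or superoxide dismutases.

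Of the enzymes that remove superoxide and hydrogen peroxide, neither superoxide dismutase passed at any passage. Sod1, the cytosolic enzyme, ranged from 530 to 1296 normalised reads and Sod2, the mitochondrial one, from 422 to 1038. Both had their lowest value in P6 replicate 2 and their highest in P10 replicate 2. Cat encodes catalase, the peroxisomal enzyme that splits hydrogen peroxide. It had 1172 and 1005 normalised reads (P0), 1695 and 1531 (P2), 1757 and 1804 (P4), 2288 and 9533 (P6), and 3611 and 2224 (P10). All later libraries were above P0, and P6 replicate 2 exceeded its duplicate by 2.06 on the log2 scale. The log2 change at P6 was 2.11 (SE 0.54, adjusted p = 0.0284). Without P6 replicate 2 it was 1.08. With P6 replicate 2 and P10 replicate 1 both left out, the log2 changes were 0.57, 0.71, 1.08 and 1.04 at P2, P4, P6 and P10. The P6 call was lost without P6 replicate 2 and on omitting any of the 6 P0, P2 and P4 libraries.

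Of 5 genes for quinone reduction and NADPH supply, only Nqo1 passed, and it did so at every later passage. Nqo1 encodes a quinone reductase that is a textbook NRF2 target. It had 336 and 401 normalised reads (P0), 1156 and 1073 (P2), 1230 and 1108 (P4), 846 and 632 (P6), and 554 and 1015 (P10). The P2 and P4 libraries were the highest, and P10 replicate 1 was the later library nearest to P0. Its log2 change was 1.60 at P2, 1.67 at P4, 0.99 at P6 and 1.03 at P10 (SE 0.28 each), with adjusted p of 0.0187, 0.00929, 0.0378 and 0.0380. The P10 call was lost without a filter.

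Pgd, Taldo1 and Tkt belong to the pentose phosphate pathway, where Pgd yields NADPH, and Me1, malic enzyme, is a separate NADPH source. Pgd had 1223 and 1276 normalised reads (P0), 2009 and 2254 (P2), 2759 and 2739 (P4), 2266 and 1265 (P6), and 1969 and 3705 (P10). Its log2 difference was 1.14 at P4 and 1.11 at P10 (SE 0.33 each), just short of the threshold (adjusted p = 0.0660 and 0.0502), and P6 replicate 2 lay between the P0 libraries. At P10 it passed with a pseudocount of 5, a minimum mean of 50, total-sum scaling, edgeR and DESeq2, and at P4 with total-sum scaling and DESeq2. Taldo1 had 1774 and 2117 at P0, 1946 to 2471 at P2 and P4, 1321 and 502 at P6, whereas the P10 libraries had 883 and 2732. Tkt ranged from 1813 to 4587 and Me1 from 1098 to 1629. Me1 was the steadiest of the 5, with log2 differences between -0.38 and -0.08.

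The duplicates at P6 and P10 split these genes in a similar way. P6 replicate 2 was lower than P6 replicate 1 in 29 of the 32 genes, and P10 replicate 1 was lower than P10 replicate 2 in 23. In 22 genes (68.8%) both held, beside 40.6% of all features, and the median log2 difference of the 32 genes was -0.55 at P6 and -0.56 at P10, beside -0.08 and -0.01 over all features. Gpx1, Gpx4, Prdx2, Prdx5 and Taldo1 were lower by over 1 on the log2 scale in both pairs, 15.6% of the genes beside 5.01% of all features. Slc7a11 and Cat were higher in both pairs, and Nfe2l2, Fth1, Gclc, Gclm, Gsr, Txnrd1 and Srxn1 were higher in P10 replicate 1 than in P10 replicate 2 alone. Over the 32 genes the differences within the pairs correlated at a Pearson r of 0.74, and over all features tested at 0.67, a description in which all points share the same 4 libraries. The lower values went with the lower Dym share of P6 replicate 2 and P10 replicate 1, and the part of that share was not tested. The P6 and P10 means of Gpx4, Prdx2, Prdx5 and Taldo1 thus combine libraries that differed by over 1 on the log2 scale, and in all 4 genes P6 replicate 1 was also below both P0 libraries. At P10 the log2 difference was -0.18 for Gpx4, -0.38 for Prdx2, -0.34 for Prdx5 and -0.32 for Taldo1, none of which passed. Without P6 replicate 2 and P10 replicate 1 it was 0.67, 0.37, 0.52 and 0.50 at P10. At P6 the same fit gave -0.81, -0.42, -0.39 and -0.55, so the 2 passages differed in sign, each on 1 library.

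**Figure D5:**
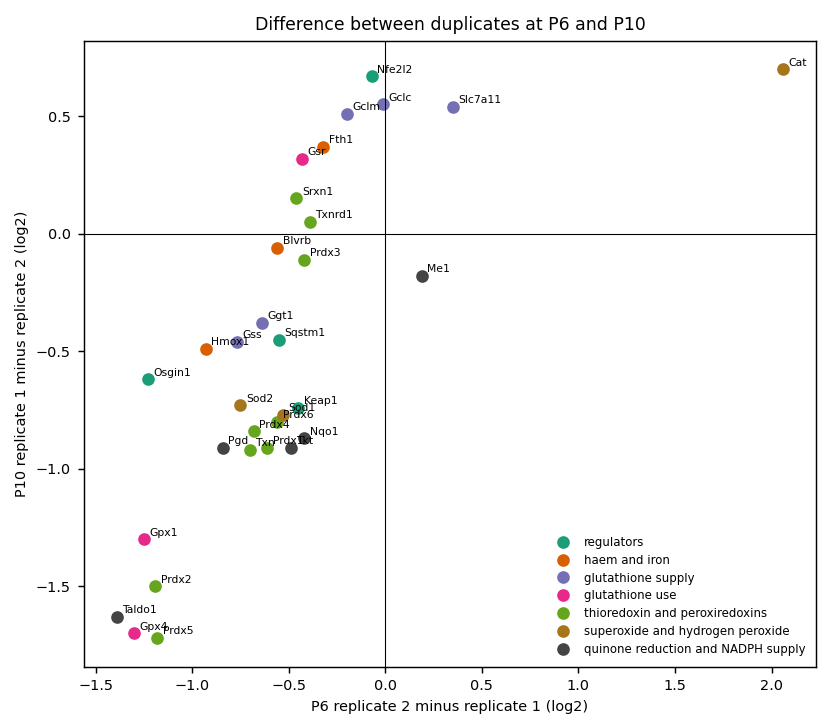
Log2 difference between duplicates for each of the 32 genes, P6 replicate 2 minus replicate 1 (x axis) and P10 replicate 1 minus replicate 2 (y axis), coloured by role. Most genes lie lower left, with Gpx1, Gpx4, Prdx2, Prdx5 and Taldo1 below -1 on both axes and Cat alone far to the upper right.

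The calls of single genes differed in how far they held when 1 library was omitted. A library outside the 2 passages compared does not enter the log2 change. Omitting it left that change the same and altered only the pooled spread. Hmox1, Blvrb, Slc7a11, Ggt1 and Gsr passed at P6 and at P10 whichever of the 10 libraries was omitted, and Hmox1 and Ggt1 also at P4. The other P10 calls were lost without either P0 library for Gclc, Gclm, Gss, Gpx1 and Txnrd1 (highest adjusted p = 0.119) and on omitting any of the 6 P0, P2 and P4 libraries for Sqstm1 (0.186), Fth1 (0.267) and Nqo1 (0.224). Fth1 also missed without P10 replicate 1, and Nqo1 without P10 replicate 2. At P6, Gclc missed without either P0 library (highest adjusted p = 0.0936), Nfe2l2 without any 1 library of P0 or P6 (0.126), and Fth1 without either P0 library or P6 replicate 1 (0.147). Gclm and Nqo1 missed at P6 on omitting any of the 8 libraries other than those of P10 (0.162 and 0.204), and Txnrd1 on omitting any of the 6 P0, P2 and P4 libraries or P6 replicate 1 (0.174). At P4, Blvrb missed without P4 replicate 2 (0.0538), Slc7a11 without P0 replicate 1 or either P4 library (0.103), and Fth1, Gsr, Gpx1 and Nqo1 without any 1 library of P0 or P4 (0.168). Sqstm1, Gss and Txnrd1 missed at P4 on omitting any of those 6 libraries (0.276). At P2, Hmox1 missed without any 1 library of P0 or P2 (0.124), and Blvrb, Ggt1, Gpx1 and Nqo1 on omitting any of the 6 (0.320).

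Whether the genes changed further after P2 was tested directly with P10 against P2, which does not use the P0 libraries in either mean. Ggt1 was higher at P10 by 2.66 (SE 0.42, adjusted p = 0.0256) and Slc7a11 by 1.18 (SE 0.22, adjusted p = 0.0454), 2 of 32 genes, or 6.25%, beside 0.621% of all features called higher, 0.636% lower and 1.26% either way. None of the 32 was called lower by limma, by edgeR or by DESeq2, and 0 were lower at an unadjusted p under 0.05. Gsr had the next lowest adjusted p (0.0740, log2 difference 0.87), and Nqo1 was below its P2 level without passing (-0.57, SE 0.28, adjusted p = 0.339). Hmox1, Gpx1 and Sqstm1 differed by 0.54, 0.03 and 0.08 on the log2 scale and did not pass. The count was 1 without either P0 library (0.399% of all features called either way) or P10 replicate 1 (1.01%), and 0 without either library of P2 (0.155 and 0.037%) or of P4 (0.266%). Without P10 replicate 2, 6 were higher and 5 lower (25.9%). Slc7a11 missed without a filter, with total-sum scaling, with quantile normalisation and with edgeR, and neither gene passed with the spread of the 2 passages alone.

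Other genes of the same pathways were taken from a list of 108, of which 94 were matched and 87 passed the minimum. At P10, 12 rose and 5 fell, 19.5% in all, beside 17.0% of all features called either way (8.77% higher and 8.25% lower). The counts were 5 and 2 at P2 (2.08 and 2.07% of all features), 9 and 4 at P4 (3.72 and 5.52%), and 18 and 7 at P6 (10.5% each way). The median log2 change of the 87 was 0.20, 0.23, -0.01 and 0.17 at P2, P4, P6 and P10. At P10 against P2 the 1 gene of the 87 that was called was Selenop, which fell.

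Among the risers at P10 with the smallest adjusted p, Akr1b8, an aldo-keto reductase, had 1184 and 1191 normalised reads (P0), 5094 and 4574 (P2), 6542 and 6307 (P4), 9226 and 6944 (P6), and 9301 and 7420 (P10). No later library came near P0, and the log2 change was 2.02 at P2 and 2.81 at P10 (SE 0.21 each, adjusted p = 0.00154 and 0.000186). Esd, an esterase that splits S-formylglutathione, had 743 and 858 normalised reads (P0), 1486 and 1362 (P2), 1633 and 1399 (P4), 1971 and 1526 (P6), and 2158 and 2558 (P10). It rose at P10 by 1.56 (SE 0.19, adjusted p = 0.00201), both P10 libraries lying above all others. Selenoh, a selenoprotein of the nucleolus, had 191 and 221 (P0), 393 and 436 (P2), 329 and 369 (P4), 603 and 336 (P6), and 851 and 702 (P10), and rose at P10 by 1.91 (SE 0.27, 0.00342). Its P10 libraries too were the highest. Gsto1, an omega class glutathione transferase, had 298 and 404 (P0), 424 and 383 (P2), 548 and 570 (P4), 604 and 883 (P6), and 1003 and 834 (P10), and rose at P10 by 1.40 (SE 0.23, 0.00651). Its P2 libraries overlapped those of P0. On omitting P0 replicate 1, Gsto1 had an adjusted p of 0.0735. With the spread of the 2 passages alone Akr1b8 passed at P10, and Esd, Selenoh and Gsto1 did not (highest adjusted p = 0.0974).

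Among the fallers, Tfrc, the transferrin receptor that brings iron into the cell, had 1138 and 1102 normalised reads (P0), 374 and 374 (P2), 373 and 326 (P4), 447 and 371 (P6), and 545 and 691 (P10). All later libraries lay below P0, the P10 libraries highest among them, and the log2 change was -1.58 at P2 and -0.87 at P10 (SE 0.18 each, adjusted p = 0.00320 and 0.0157). Sesn2, sestrin 2, had 438 and 365 normalised reads (P0), 109 and 124 (P2), 117 and 104 (P4), 109 and 103 (P6), and 48.9 and 97.6 (P10). It fell by 1.77 at P2 and by 2.51 at P10 on the log2 scale (SE 0.31 each, adjusted p = 0.0190 and 0.00206). Nfe2l1, which encodes the NRF2 relative NRF1, had 2293 and 1939 normalised reads (P0), 1531 and 1590 (P2), 1823 and 1720 (P4), 938 and 747 (P6), and 706 and 1143 (P10). All later libraries lay below P0. Its log2 change at P10 was -1.23 (SE 0.24, adjusted p = 0.0114). Chac1, a glutathione-degrading enzyme, had 36.6 and 37.4 (P0), 10.4 and 19 (P2), 11.9 and 8.16 (P4), 13.3 and 14.6 (P6), and 6.75 and 11.7 (P10), with a log2 change at P10 of -1.94 (SE 0.43, adjusted p = 0.0191). Without either P0 library Nfe2l1, Tfrc and Chac1 missed the threshold at P10 (highest adjusted p = 0.124), and Chac1 also without P10 replicate 1. At P2, Tfrc missed without P2 replicate 2 (0.0565) and Sesn2 on omitting any of the 6 P0, P2 and P4 libraries (0.196). None of these 4 passed at P10 with the spread of the 2 passages alone (highest adjusted p = 0.153).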

How the data were processed

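The labels' protocols describe total RNA taken with Trizol, ribosomal RNA removal and stranded TruSeq libraries. Each value in the deposited table is a signal, namely a read count normalised by the authors with DESeq, per the submitters' processing notes. The sources used here name no aligner, counter, genome build or annotation. In each column 100.0% of the values were whole multiples of the smallest value above 0, within 0.01 reads, which gave back whole reads; for P4 replicate 1 the step lies close to 1. Gene numbers were matched to symbols through RefSeq's CriGri-PICRH-1.0 gene table (16386 of 20050 matched), used for names only.

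The test was limma 3.58.1 (R 4.3.3) on log2(value + 1), two-sided, with a trended prior, 1 mean per passage and 1 pooled spread per gene from all 10 libraries (5 residual degrees of freedom), for 13521 features with a mean of at least 10. The p-values were adjusted by Benjamini-Hochberg over all of these. Fold changes are on that log2 scale and understate changes of low genes. Alternatives used edgeR 4.0.16 and DESeq2 1.42.0 on recovered reads, other scalings, filters and spreads, and fewer libraries. The steps were tested on simulated data. The genes, lists and alternatives were chosen with earlier results of these data known. Of the 32 genes, values in every library are given for those called in at least 1 comparison and for others a result turns on. Of the wider list, up to 4 genes each way at P10 and 2 at P2 with the smallest adjusted p were named. Older and newer symbols of 1 gene counted once.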

Additional observations from a re-analysis of the deposited data

How the results depend on the processing

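The number of the 32 genes called against P0 stayed within 1.5 times its value with a pseudocount of 5, without a filter or with a minimum mean of 50, with total-sum scaling, with quantile normalisation and with edgeR. At P10 it was 13, or 2 when the spread came from the 2 passages compared (0.362% of all features) and 28 without both P6 replicate 2 and P10 replicate 1 (46.3%). At P6 it was 12, or 26 without that pair (48.8%). At P4 it was 11, or 22 with the spread of the 2 passages (42% of all features) and 22 without the pair (43.1%). At P2 it was 5, or 8 with DESeq2, 20 with the spread of the 2 passages (29.1%), 22 without the pair (34.1%) and 2 with a replicate block. For P10 against P2 it was 2, or 1 without a filter, with total-sum scaling, with quantile normalisation and with edgeR, 4 with DESeq2, 0 with the spread of the 2 passages, 18 without the pair (22%) and 0 with the replicate block. The counts without the pair rest on a spread from P0, P2 and P4 alone and show only how far a count can move. At P6, P4 and P2 they include genes called lower, whereas the main counts are all of genes called higher. Leaving out 1 library leaves its passage 1 library, and over such fits each count moved both up and down. The share called over all features moved both ways as well. At P10, at P6 and for P10 against P2, some of these fits also called genes lower. The cause was not tested.

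Without both P6 replicate 2 and P10 replicate 1, 4 genes that were not called changed sign at P10, on 1 library there. They were Gpx4 (0.67), Prdx2 (0.37), Prdx5 (0.52) and Taldo1 (0.50). At P6, also on 1 library, the same fit placed them below P0 (-0.81, -0.42, -0.39 and -0.55). Leaving out 1 library at a time, their log2 differences at P10 ranged from -1.03 to 0.67, -1.13 to 0.37, -1.19 to 0.52 and -1.13 to 0.50. Total-sum scaling moved the median log2 change of all features at P6 from -0.07 to 0.15. The replicate numbers pair nothing in the labels, and deviations of same-numbered libraries correlated between -0.67 (P6 and P10) and 0.23 (P2 and P10). With the block 10, 10 and 8 genes were called at P10, P6 and P4, beside 12.5, 15 and 5.67% of all features. Depth limits Ggt1, which had 4 and 6 reads at P0.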

Other observations

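Some genes of the wider list had their highest mean at P2 or P4. They were chosen after their values were seen. The highest single library was P10 replicate 2 for Gstp1 and P6 replicate 1 for Ephx1. Selenop, a secreted selenium carrier, had 4058 and 4162 normalised reads (P0), 18678 and 15413 (P2), 12733 and 12174 (P4), 9863 and 7447 (P6), and 5368 and 4538 (P10). It rose by 2.05 on the log2 scale at P2, by 1.60 at P4 and by 1.06 at P6 (SE 0.22 each, limma adjusted p = 0.00223, 0.00411 and 0.0134), and P10 lay below P2 by a test of that difference (log2 change -1.78, adjusted p = 0.00978), for which no alternative was run. Ephx1, microsomal epoxide hydrolase, had 24.4 and 21.6 normalised reads (P0), 86.4 and 92.8 (P2), 94.0 and 74.6 (P4), 103 and 64.0 (P6), and 43.0 and 49.9 (P10), and passed at P2, P4 and P6. Txnip, which binds thioredoxin, had 2135 and 2075 (P0), 3467 and 3258 (P2), 4627 and 4522 (P4), 4002 and 4066 (P6), and 3059 and 2792 (P10), and also passed at P2, P4 and P6. Gstp1, a pi class glutathione transferase, had 2352 and 2805 (P0), 7304 and 6841 (P2), 11616 and 11954 (P4), 8529 and 3948 (P6), and 3824 and 14164 (P10). It passed at P4 alone (log2 change 2.20, SE 0.55, adjusted p = 0.0422), and its P10 libraries differed in the same direction as those of Gpx1. The Gstp1 call was lost on omitting any of the 6 P0, P2 and P4 libraries (highest adjusted p = 0.241), and the calls of Selenop, Ephx1 and Txnip at P4 and P6 were lost on omitting P0 replicate 1 (highest adjusted p = 0.106). Omitting P0 replicate 2 also ended these calls at P6, as well as Ephx1 at P4, and omitting either P4 library ended all 3 at P4 (highest adjusted p = 0.105). At P2, Ephx1 missed on omitting any of the 4 P0 and P2 libraries (highest adjusted p = 0.129) and Txnip on omitting any of the 6 P0, P2 and P4 libraries (0.354).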
